A study of Mus musculus with 7 samples.

Results

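The 48 genes described here encode the proteasome and its dedicated helpers. They were chosen by symbol, as every row of the deposited gene count table whose name is Psm, a letter from a to g and a number, and they are 48 of 53819 genes. Of these, 41 are treated as constitutive, 5 (Psmb8, Psmb9, Psmb10, Psme1 and Psme2) as inducible, and Psma8 and Psmb11 are tissue-restricted 20S genes. A filter on low counts left 46, all but Psma8 and Psmb11, among the 14935 genes tested.

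The libraries came from quadriceps, the large thigh muscle, of wild type male C57BL/6J mice, an inbred strain. At 8 weeks of age the mice were given 200 µl of an AAV8 vector at 1e+12 vg per ml by tail vein, and muscle was collected after 54 days. In the group called AAV8-IGFBP1 (3 libraries) the vector was AAV8-Alb-IGFBP1, and in the group called AAV8-Null (4 libraries) it was the control vector AAV8-Alb-Null. AAV8 is an adeno-associated virus with a preference for liver, Alb is the albumin gene, whose promoter is active in hepatocytes, and IGFBP1 is a secreted protein that binds insulin-like growth factors, so muscle is not the tissue in which the vector is meant to be active. All 7 libraries carry a vector, and the comparison holds no mice without one. Whether separate libraries are separate mice is not stated in the labels, so p-values here speak only to the spread among the 7 libraries, which may be technical.

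The proteasome degrades proteins that carry ubiquitin chains. Its 20S core is a barrel of alpha and beta rings, in which Psmb5, Psmb6 and Psmb7 encode the catalytic beta subunits, and the 19S particle on its ends recognises, unfolds and feeds in the substrate. Psmb8, Psmb9 and Psmb10, which interferon-gamma induces and immune cells express at rest, take the places of Psmb5, Psmb6 and Psmb7 to form the immunoproteasome, while Psme1 and Psme2 form the 11S activator that opens the core. In muscle, the ubiquitin and proteasome route is known for the turnover of myofibrillar proteins.

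Psmb8 and Psmb9 lie near each other on chromosome 17, on opposite strands, and were the 2 members that varied most between libraries. Their upstream sequences are shown for that reason, as 250 bases before the RefSeq start in build GRCm38.p6, written 5′ to 3′ on the strand of the gene, with capitals for a match to the gamma-activated site (GAS) letters TTCNNNGAA.
Psmb8, chr17:34197945-34198194, plus strand: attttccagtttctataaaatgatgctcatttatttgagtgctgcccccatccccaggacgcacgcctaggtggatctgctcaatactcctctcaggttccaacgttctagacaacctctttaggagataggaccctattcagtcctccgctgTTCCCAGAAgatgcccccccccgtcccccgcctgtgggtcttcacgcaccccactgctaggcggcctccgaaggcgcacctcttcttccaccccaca
Psmb9, chr17:34187331-34187580, minus strand: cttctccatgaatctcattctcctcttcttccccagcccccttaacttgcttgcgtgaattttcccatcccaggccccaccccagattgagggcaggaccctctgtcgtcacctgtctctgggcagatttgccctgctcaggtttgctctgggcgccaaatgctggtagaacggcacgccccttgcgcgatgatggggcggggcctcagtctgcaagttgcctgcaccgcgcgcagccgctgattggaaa
The Psmb8 window held 1 GAS match, from position -97 to -89 relative to the start, and the Psmb9 window held none. The search covered both strands and also the interferon-stimulated response element core, the antioxidant response element core TGACNNNGC and the CCAAT box. Psmb9 held 1 CCAAT match, on the minus strand of the window from -8 to -4, and the windows of Psmb10, Psme1 and Psme2 held no match to any of these motifs. Among all 32851 promoters of the table, GAS letters occurred in 7.02%, the interferon element core in 2.98%, the antioxidant element core in 10.2% and CCAAT in 33.8%. Of 36 promoters of 34 constitutive members, 3 held the interferon element core, 1 the GAS letters, 5 the antioxidant element core and 12 CCAAT. In all, 40 of the 48 members matched the table, with 43 promoters. A match is a description of letters and not evidence of a bound factor.

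Library totals ranged from 38947493 to 51210391 estimated counts. AAV8-IGFBP1 replicate 2 stood apart from the rest, with a score of 45.2 on the first principal component (27.2% of the variance). AAV8-IGFBP1 replicates 1 and 3 were at 12.6 and 8.24 and the AAV8-Null libraries at -25.7 to -11.9, so this component also separated the groups. Values below are in CPM, counts relative to the library total after scaling by edgeR's TMM factors, and log2 fold changes, AAV8-IGFBP1 against AAV8-Null, come from edgeR's quasi-likelihood test with Benjamini-Hochberg adjustment over all genes tested. With an adjusted p threshold of 0.05, edgeR called 87 of 14935 genes (0.583%), 58 higher (0.388%) and 29 lower (0.194%) in AAV8-IGFBP1.

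No proteasome gene passed that test. edgeR called 0 of 46 members, DESeq2 called 0, where it called 3.18% of all genes (1.52% higher and 1.66% lower), and limma-voom called 0, where it called 0.415% of all genes (0.295% higher and 0.121% lower). An unadjusted edgeR p under 0.05 was reached by 2 members, Psmb2 and Psme4 (4.35% of the 46), against 12.9% of all genes. The median log2 fold change was -0.01 over the 46 members, -0.02 over the 41 constitutive members and 0.10 over the 5 inducible members, and it was -0.001 over all genes. Among the constitutive members 15 lay above 0 and 26 below, from -0.15 to 0.21, and 40 of 41 were within 0.2 of 0. The median standard error of the constitutive members was 0.06. The share of all counts that fell on proteasome genes was 0.323% ± 0.0131 (SD, n = 4) for the AAV8-Null libraries and 0.328% ± 0.00572 (SD, n = 3) for the AAV8-IGFBP1 libraries, a difference smaller than the spread.

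**Figure D1:**
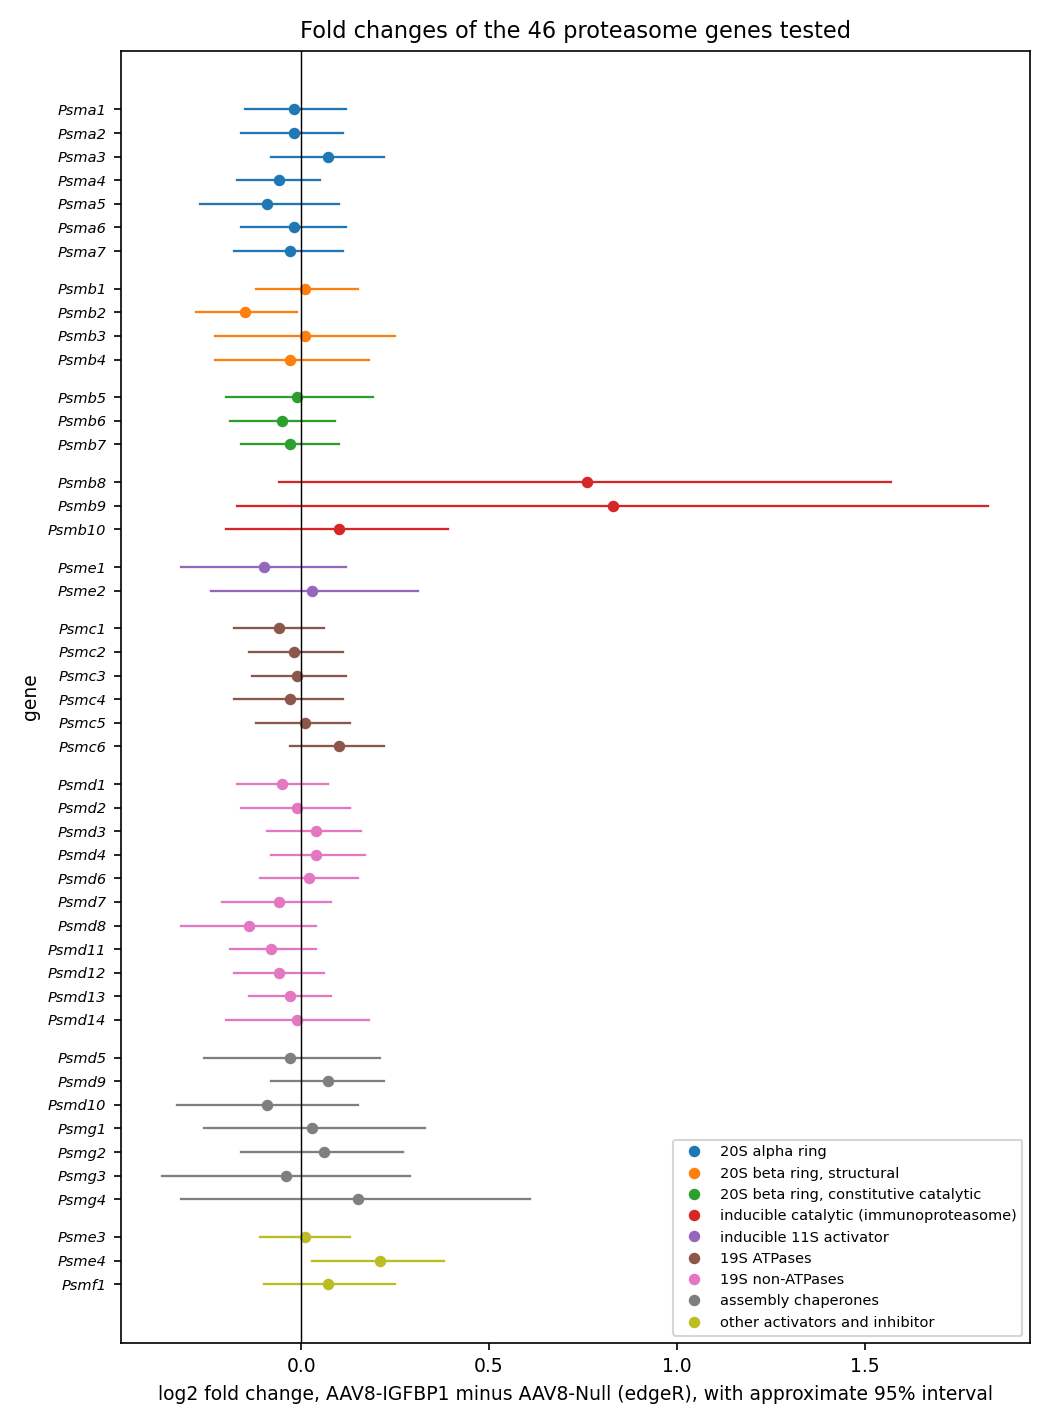
Log2 fold change (horizontal axis, AAV8-IGFBP1 minus AAV8-Null, edgeR) with its approximate 95% interval for each of the 46 proteasome genes tested (vertical axis), coloured by role. The 41 constitutive genes lie between -0.15 and 0.21, while Psmb8 and Psmb9 have the widest intervals, which include 0.

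Among the inducible catalytic subunits, Psmb8 and Psmb9 were high in 1 library, AAV8-IGFBP1 replicate 2. Psmb8, which replaces the chymotrypsin-like subunit Psmb5, was at 3.60, 3.44, 3.01 and 3.43 CPM in AAV8-Null replicates 1 to 4 and at 4.54, 9.53 and 3.21 CPM in AAV8-IGFBP1 replicates 1 to 3. The value of AAV8-IGFBP1 replicate 2 was 2.69 times the mean of the other 6 libraries, AAV8-IGFBP1 replicate 1 also lay above every AAV8-Null library, and AAV8-IGFBP1 replicate 3 lay within their range, so the groups overlapped. The log2 fold change of Psmb8 was 0.76 ± 0.35 (SE), with an interval from -0.06 to 1.57 (edgeR adjusted p = 0.423). Without AAV8-IGFBP1 replicate 2 it was 0.20 (edgeR adjusted p = 0.739), so this library set most of the difference between the groups. Over all alternatives the adjusted p of Psmb8 ran from 0.182 to 0.739.

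Psmb9, which replaces the caspase-like subunit Psmb6, was at 1.71, 1.37, 1.07 and 1.46 CPM in AAV8-Null and at 1.84, 4.57 and 1.26 CPM in AAV8-IGFBP1. AAV8-IGFBP1 replicate 2 was again the highest, at 3.14 times the mean of the other libraries, and replicate 3 fell inside the AAV8-Null range. The log2 fold change of Psmb9 was 0.83 ± 0.43 (SE), with an interval from -0.17 to 1.83 (edgeR adjusted p = 0.480), and without that library it was 0.13 (edgeR adjusted p = 0.894, the highest over the alternatives, which reached down to 0.264). Behind these values stand 41 to 86 estimated counts of Psmb9 in each library other than AAV8-IGFBP1 replicate 2, which had 189. Tap1, a peptide transporter gene beside Psmb9 that was picked for its position and not by the naming rule, was at 2.60, 2.49, 1.54 and 3.80 CPM in AAV8-Null and at 3.28, 7.18 and 2.30 CPM in AAV8-IGFBP1, and it too was highest in replicate 2.

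Psmb10, which replaces the trypsin-like subunit Psmb7, was at 6.67, 5.43, 5.24 and 6.72 CPM in AAV8-Null and at 5.95, 7.33 and 6.04 CPM in AAV8-IGFBP1. Replicate 2 of AAV8-IGFBP1 was the highest library here as well, but only 1.22 times the mean of the others, and the groups overlapped. Its log2 fold change was 0.10 ± 0.13 (SE; edgeR adjusted p = 0.818) and -0.01 without that library. The 3 inducible catalytic genes thus differed among themselves in how far they departed in that library.

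The 11S activator genes did not share the high values of Psmb8 and Psmb9. Psme1, the alpha chain of the activator, was at 29.5, 24.9, 24.4 and 28.4 CPM in AAV8-Null and at 23.0, 28.3 and 23.7 CPM in AAV8-IGFBP1, with AAV8-IGFBP1 replicate 2 below the 2 highest control libraries. Its log2 fold change was -0.10 ± 0.10 (SE; edgeR adjusted p = 0.726). Psme2, the beta chain, was at 12.0, 12.1, 9.66 and 10.7 CPM in AAV8-Null and at 10.6, 13.5 and 10.0 CPM in AAV8-IGFBP1, highest in AAV8-IGFBP1 replicate 2, and differed by 0.03 ± 0.12 on the log2 scale (SE; edgeR adjusted p = 0.941). Psme2b, a near copy of Psme2, had 2.96% to 6.28% as many estimated counts as Psme2 by library, so Psme2 is uncertain where the counting divided shared reads between them.

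**Figure D2:**
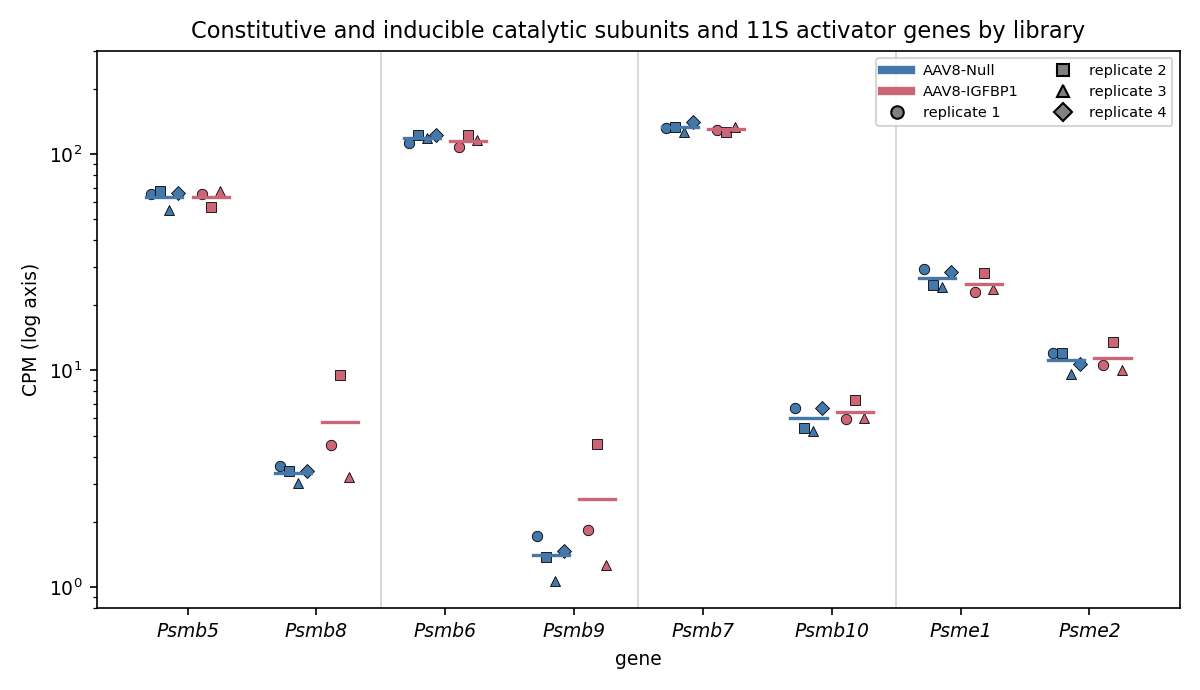
Level of each catalytic subunit and its inducible counterpart, and of the 11S activator genes, in CPM on a log axis. Each point is a library, marked by replicate, and each bar is a group mean, with AAV8-Null (4 libraries) in blue and AAV8-IGFBP1 (3 libraries) in red. Psmb8 at 9.53 CPM and Psmb9 at 4.57 CPM in AAV8-IGFBP1 replicate 2 stand above every other library, while Psmb5, Psmb6 and Psmb7 overlap between the groups.

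The constitutive catalytic subunits showed little difference between the groups. Psmb5 was at 65.5, 67.5, 55.4 and 66.0 CPM in AAV8-Null and at 65.5, 56.7 and 67.5 CPM in AAV8-IGFBP1 (log2 fold change -0.01 ± 0.09 SE). Here AAV8-Null replicate 3 and AAV8-IGFBP1 replicate 2 were the low libraries, 1 in each group. Psmb6 was at 112, 123, 119 and 122 CPM in AAV8-Null and at 108, 122 and 116 CPM in AAV8-IGFBP1 (log2 fold change -0.05 ± 0.06 SE). Psmb7 was at 132, 134, 126 and 140.0 CPM in AAV8-Null and at 129.7, 126 and 134 CPM in AAV8-IGFBP1 (log2 fold change -0.03 ± 0.06 SE). The groups overlapped in all 3, and the edgeR adjusted p-values were 0.982 for Psmb5, 0.804 for Psmb6 and 0.868 for Psmb7.

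The ratio of each inducible subunit to its constitutive counterpart gives a measure in which library size cancels. For every 100 counts of Psmb5 there were 5.49, 5.10, 5.43 and 5.20 counts of Psmb8 in AAV8-Null and 6.93, 16.8 and 4.75 in AAV8-IGFBP1. The AAV8-IGFBP1 libraries thus lay on both sides of the control range. The log2 ratio, with a pseudocount of 0.5 on each count, differed by 0.63 between the groups (exact permutation test over 35 splits, two-sided, p = 0.143, adjusted over the 3 pairs 0.300, smallest possible p 0.0286). The Psmb9 count per 100 counts of Psmb6 was 1.52, 1.11, 0.905 and 1.20 in AAV8-Null and 1.72, 3.75 and 1.09 in AAV8-IGFBP1, a log2 difference of 0.71 (exact permutation p = 0.200, adjusted 0.300). The Psmb10 count per 100 counts of Psmb7 was 5.06, 4.06, 4.17 and 4.80 in AAV8-Null and 4.59, 5.79 and 4.53 in AAV8-IGFBP1, a log2 difference of 0.13 (exact permutation p = 0.371, adjusted 0.371). None of the 3 ratios separated the groups. Without AAV8-IGFBP1 replicate 2 the differences were 0.11, 0.23 and 0.02, where 15 splits allow no p below 0.0667.

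**Figure D3:**
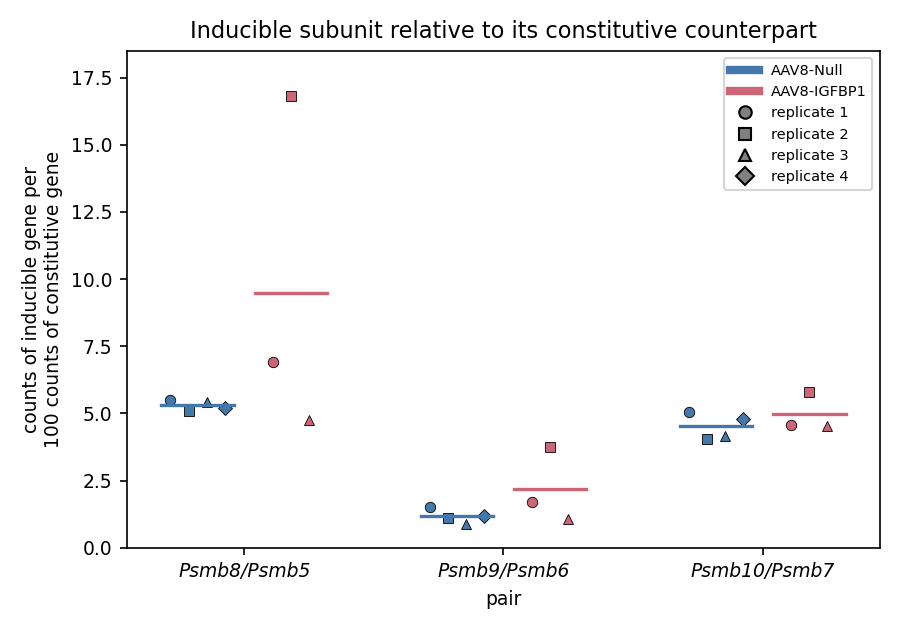
Counts of the inducible subunit per 100 counts of its constitutive counterpart (vertical axis, linear from 0) for 3 pairs, with a point per library and a bar at each group mean. Psmb8 reaches 16.8 and Psmb9 reaches 3.75 in AAV8-IGFBP1 replicate 2. For Psmb8, AAV8-IGFBP1 replicate 1 (6.93) lies above and replicate 3 (4.75) below the range of the 4 AAV8-Null libraries (5.10 to 5.49). For Psmb9, replicate 1 (1.72) lies above that range and replicate 3 (1.09) inside it, and for Psmb10 both lie inside it.

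Levels were set on a common scale by dividing CPM by the length in kilobases of the longest GENCODE M21 protein-coding transcript of each gene. That transcript need not be the one expressed, so ranges and medians per kilobase depend on this choice. On that scale the constitutive 20S genes ran from 17.7 (Psma5) to 149 (Psmb6) CPM per kilobase in AAV8-Null, with a median of 48.7, and the 19S genes from 22.3 (Psmd13) to 88.9 (Psmd8), with a median of 52.7. Psmb8 was at 2.07 ± 0.154 (SD, n = 4), Psmb9 at 1.04 ± 0.194 and Psmb10 at 4.59 ± 0.603 CPM per kilobase. The 11S activator genes stood between, Psme1 at 24.1 ± 2.31 and Psme2 at 11.5 ± 1.20 CPM per kilobase. The inducible genes made up 1.50% ± 0.148 (SD, n = 4) of all proteasome counts in the control libraries and 1.58% ± 0.381 (SD, n = 3) in the AAV8-IGFBP1 libraries, where the mean was 1.36% without replicate 2, so the direction turned on that library. In bulk muscle a low level could come from few cells that express a gene strongly or many that express it weakly, and these cannot be told apart, as fewer cells of a type and less RNA per cell cannot.

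Over the 14 constitutive genes of the 20S core, Psmb5, Psmb6 and Psmb7 included, 3 lay above 0 and 11 below, with log2 fold changes from -0.15 to 0.07. Over all members, the groups did not overlap for 3 genes, all lower in AAV8-IGFBP1 (Psma4, Psmb2 and Psmd11), against 12.3% of all genes in either direction (6.33% higher and 6.01% lower). Psmb2, a structural beta subunit, was at 46.6, 47.0, 41.7 and 46.2 CPM in AAV8-Null and at 39.9, 41.5 and 41.6 CPM in AAV8-IGFBP1. Its lowest control library, replicate 3, sat just above the AAV8-IGFBP1 libraries, and the log2 fold change was -0.15 ± 0.06 (SE; edgeR adjusted p = 0.362).

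Psma4, an alpha ring subunit, was at 76.5, 77.7, 78.2 and 78.9 CPM in AAV8-Null and at 74.4, 75.6 and 73.9 CPM in AAV8-IGFBP1, groups less than 1 CPM apart at their nearest libraries (log2 fold change -0.06 ± 0.05 SE, edgeR adjusted p = 0.662). Psma5, another alpha subunit, was at 21.1, 24.8, 20.6 and 21.1 CPM in AAV8-Null and at 21.7, 19.5 and 20.6 CPM in AAV8-IGFBP1, and its AAV8-Null replicate 2 was high. Psmb4, another structural beta subunit, was at 61.4, 59.7, 48.8 and 60.6 CPM in AAV8-Null and at 58.0, 51.6 and 60.0 CPM in AAV8-IGFBP1. The edgeR adjusted p was 0.718 for Psma5 and 0.932 for Psmb4.

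AAV8-Null replicate 3 and AAV8-IGFBP1 replicate 2 were the 2 lowest libraries for 11 of the 41 constitutive members (26.8%), where they were so for 5.70% of all genes tested. The 11 comprised 8 of the 14 20S core genes and 2 of the 17 19S genes (Psmc5 and Psmd6), with Psmg2 the remaining gene. This pair crosses the groups, and the pattern was chosen after its values were seen. The same 2 libraries had the lowest totals, 38947493 and 39927146 estimated counts, against 42557954 to 51210391 in the others. The part of library total in this pattern was not tested.

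The 19S particle, which holds the ATPases and the ubiquitin receptors, contributed 17 members with log2 fold changes from -0.14 to 0.10. Psmc6, an ATPase of the base, was at 67.5, 72.8, 66.9 and 66.9 CPM in AAV8-Null and at 71.4, 73.9 and 74.3 CPM in AAV8-IGFBP1. Its AAV8-Null replicate 2 reached into the AAV8-IGFBP1 range, and the log2 fold change was 0.10 ± 0.06 (SE; edgeR adjusted p = 0.521). Psmc1, a second ATPase, differed by -0.06 ± 0.05 (SE; edgeR adjusted p = 0.718).

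Psmd8, a lid subunit, was at 166, 192, 187 and 161 CPM in AAV8-Null and at 158, 149 and 172 CPM in AAV8-IGFBP1. The 2 high control libraries were above every AAV8-IGFBP1 library and the 2 low ones were not, and the log2 fold change was -0.14 ± 0.08 (SE; edgeR adjusted p = 0.518). Psmd11, a scaffold of the lid, was at 93.4, 95.0, 89.8 and 95.7 CPM in AAV8-Null and at 88.9, 87.4 and 89.3 CPM in AAV8-IGFBP1 (log2 fold change -0.08 ± 0.05 SE, edgeR adjusted p = 0.575). Its groups met without overlap, since AAV8-Null replicate 3 lay barely above AAV8-IGFBP1 replicate 3.

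AAV8-IGFBP1 replicate 2 was the lowest library for 16 of the 41 constitutive members, 11 of them 19S genes, and the highest for 0 of 41, while it was the highest for 4 of the 5 inducible members. Over all genes it was the highest library for 17.7% and the lowest for 16.1%. The spread between libraries was also wider for inducible members. The highest library was 1.14 times the lowest in the median constitutive member, with a range from 1.04 to 1.75, and 1.40 times in the median inducible member, with a range from 1.29 to 4.26. Psmb10 (1.40), Psme1 (1.29) and Psme2 (1.40) lay within the constitutive range. The 7 assembly chaperones, among the constitutive members with the lowest counts, had a median of 1.27, so level and spread are not separated here.

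The assembly chaperones, which build the rings and the base and leave the finished particle, showed log2 fold changes from -0.09 to 0.15 in 7 members. Psmd9, a chaperone of the 19S base, was at 14.5, 14.3, 14.9 and 14.6 CPM in AAV8-Null and at 15.7, 15.7 and 14.5 CPM in AAV8-IGFBP1 (log2 fold change 0.07 ± 0.07 SE, edgeR adjusted p = 0.718). Psmd10, also called gankyrin and likewise a chaperone of the base, was at 5.98, 6.15, 6.13 and 6.67 CPM in AAV8-Null and at 6.56, 5.73 and 5.27 CPM in AAV8-IGFBP1 (log2 fold change -0.09 ± 0.11 SE, edgeR adjusted p = 0.784). Both overlapped between the groups.

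Among other activators, Psme4, which encodes the PA200 cap of the core, had the largest log2 fold change of the constitutive members. It was at 345, 377, 371 and 341 CPM in AAV8-Null and at 453, 371 and 418 CPM in AAV8-IGFBP1. Replicates 1 and 3 of AAV8-IGFBP1 were above every control library, whereas replicate 2, where Psmb8 was highest, lay inside the control range. Its log2 fold change was 0.21 ± 0.08 (SE), with an interval from 0.03 to 0.38 (edgeR adjusted p = 0.319), and over the alternatives the adjusted p ran from 0.206 to 0.632. Per kilobase of transcript it was at 55.3 ± 2.81 (SD, n = 4) CPM in AAV8-Null, near the 19S median. Psmf1, an inhibitor of the core, differed by 0.07 ± 0.08 (SE; edgeR adjusted p = 0.750) and Psme3, a nuclear activator, by 0.01 ± 0.05 (SE; edgeR adjusted p = 0.951).

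Both tissue-restricted genes were at or near 0. Psma8, an alpha subunit of the testis, had 1 count, in AAV8-Null replicate 3, and Psmb11, a beta subunit of the thymus, had 0 in all 7 libraries, where a count of 0 allows up to 0.058 to 0.0785 CPM by library for counting error alone.

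The genes that work with the proteasome gave a like picture, apart from single genes. Of 22 tested partners and regulators, among them the transcription factor Nfe2l1 and the assembly factor Pomp, edgeR called 0, with a median log2 fold change of 0.003. Ube3c, a proteasome-bound ubiquitin ligase, was at 61.5, 61.8, 68.0 and 63.1 CPM in AAV8-Null and at 73.1, 78.4 and 83.7 CPM in AAV8-IGFBP1, all higher than the controls (log2 fold change 0.30 ± 0.07 SE). Its edgeR adjusted p was 0.0868, and over the alternatives it ran from 0.00600, with DESeq2, to 0.242.

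Among 9 interferon-gamma and MHC class I regulators, 1 was called. Ifngr2, a chain of the interferon-gamma receptor, rose from 62.7, 66.4, 63.4 and 67.0 CPM in AAV8-Null to 106, 96.4 and 101 CPM in AAV8-IGFBP1, with no overlap (log2 fold change 0.64 ± 0.06 SE, edgeR adjusted p = 0.00679). It passed the test without each library in turn. Unlike Psmb8 and Psmb9, it was not highest in AAV8-IGFBP1 replicate 2. Nlrc5, the activator of MHC class I genes, was at 1.63, 0.792, 1.13 and 1.44 CPM in AAV8-Null and at 1.91, 4.28 and 1.44 CPM in AAV8-IGFBP1 (edgeR adjusted p = 0.363), and it was highest in that library.

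Peptide loading and MHC class I genes, which act on the peptides the immunoproteasome makes, were not called by edgeR (0 of 11). AAV8-IGFBP1 replicate 2, where Psmb8 and Psmb9 were highest, was the highest library for 9 of 11, with Canx and Pdia3 the exceptions, and Calr was only narrowly so, at 169 CPM against 167 CPM in AAV8-Null replicate 3. H2-K1 was at 66.5, 57.6, 51.8 and 54.5 CPM in AAV8-Null and at 72.2, 153 and 60.9 CPM in AAV8-IGFBP1 (log2 fold change 0.73 ± 0.33 SE, edgeR adjusted p = 0.437). Without that library the value was 0.21.

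The lists of markers of other cell types differed in how they stood in that library. Adipocyte markers were highest in AAV8-IGFBP1 replicate 2 for 7 of 7 genes, with summed levels of 240.5 to 481 CPM in AAV8-Null and of 402, 1463 and 301 CPM in AAV8-IGFBP1 replicates 1 to 3. Cidec, a lipid droplet gene, was at 89.0 CPM there, Adipoq, the adiponectin gene, at 110.4 CPM and Cfd, the adipsin gene, at 501 CPM, which were 6.31, 4.22 and 4.36 times the mean of the other 6 libraries. Of the 17 leukocyte markers 9 were tested, and 4 of these were highest there, with sums over all 17 of 72.3 to 117 CPM in AAV8-Null and 111, 157 and 72.8 CPM in AAV8-IGFBP1. Cd3e, Cd8a, Cd79a, Nkg7 and Klrb1c were at 0 counts in at least 1 library, and Cd3e, a T cell gene, had 0 to 3 counts in the other libraries and 15 in AAV8-IGFBP1 replicate 2. S100a8, a neutrophil gene, was at 10.3 CPM there, at 1.39 and 0.996 CPM in AAV8-IGFBP1 replicates 1 and 3 and at 0.119 to 0.916 CPM in AAV8-Null. In AAV8-IGFBP1 replicate 2 Itgax, a dendritic cell gene, stood at 4.56 times the mean of the others and Ptprc, a marker of all leukocytes, at 2.17 times. Itgax was at 0.412 and 0.465 CPM in AAV8-IGFBP1 replicates 1 and 3 and at 0.0993 to 0.393 CPM in AAV8-Null. The macrophage genes Csf1r, Cd68 and Adgre1 were near that mean in replicate 2, at 0.971, 0.971 and 0.969 times. Csf1r was at 12.5 to 13.3 CPM in AAV8-Null and at 11.8, 11.3 and 6.82 CPM in AAV8-IGFBP1 replicates 1 to 3. The remaining leukocyte markers tested were above the mean of the others in replicate 2, Itgam at 1.41, Lyz2 at 1.30 and Cd74 at 1.96 times. Of the 9 tested, the groups did not overlap for S100a8 and Itgax, higher in AAV8-IGFBP1, and for Csf1r, lower. Over all genes 6.33% were higher and 6.01% lower without overlap. The edgeR adjusted p-values of these 3 were 0.358, 0.272 and 0.411. Without AAV8-IGFBP1 replicate 2 their log2 fold changes were 1.26, 0.94 and -0.46. Erythroid markers were highest in AAV8-IGFBP1 replicate 2 for 3 of 5 genes and endothelial markers for 0 of 5. Of the 10 muscle fibre markers 0 were highest there, and the abundant fibre genes Ckm and Acta1 were present in every library. Slow fibre markers had log2 fold changes below 0 for 8 of 8 genes (median -1.44), with sums of 656 to 2029 CPM in AAV8-Null and 282 to 897 CPM in AAV8-IGFBP1, and edgeR called 0 of them. The part of these cells and fibres in the levels of the proteasome genes was not tested.

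**Figure D4:**
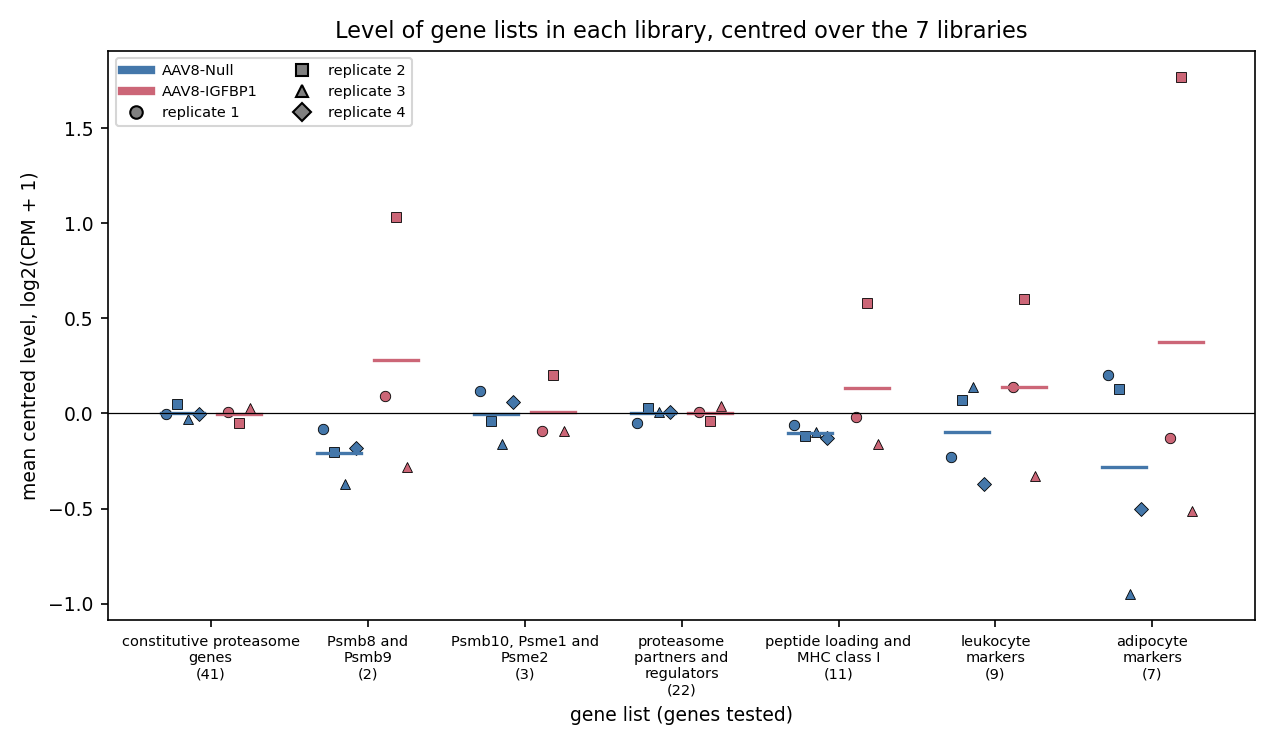
Mean level of each gene list in each library, as log2(CPM + 1) centred over the 7 libraries (vertical axis), with a point per library, a bar per group mean and the number of genes tested under each list. Psmb8 and Psmb9 (1.03), peptide loading genes (0.58), leukocyte markers (0.60) and adipocyte markers (1.77) are highest in AAV8-IGFBP1 replicate 2, where the constitutive proteasome genes are at -0.05.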

How the data were processed

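mRNA-Seq libraries of 7 quadriceps samples (Universal Plus kit, per the labels' protocols) were assigned to groups by their titles. A single table was deposited by the authors, with an estimated count for each gene symbol and library that need not be whole. Salmon 1.10.1, R 4.2.2, STAR 2.7.9a, cutadapt 3.4 and Trim Galore 0.6.7 are named without roles in the submitters' processing notes, as is build GRCm39. Strand handling and annotation release are not given in the sources used here, and reads of overlapping or antisense genes may therefore be shared. Fractional values, which arise where reads are shared, occurred in 14 of the 48 members (tolerance 0.02).

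Expected counts were rounded and tested with edgeR 4.0.16 in R 4.3.3 on group alone: filterByExpr defaults (minimum count 10, minimum total count 15), TMM, glmQLFit with robust TRUE and its current form, glmQLFTest, Benjamini-Hochberg over 14935 genes, threshold 0.05. That form was settled after the counts of calls had been seen, to match earlier processing of these data, and the older form is given as an alternative. Standard errors are approximate, from the log2 fold change and the F statistic, and the 95% intervals rest on them. DESeq2 1.42.0 and limma 3.58.1 voom were alternatives, with other scaling, filters, the replicate number as a block and each library left out. Ratios used an exact permutation test. The steps were tested on simulated data.

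Library totals were 38947493 to 51210391 counts, and chi-square per degree of freedom between libraries of a group was 22.2 to 60, so none was taken as a repeat of another. The limit for a count of 0, set at 3 counts, covers counting error alone. The reason is that PCR reads with no molecular identifiers are not independent molecules. Intervals of log2 fold changes rest on the F statistic, so they also include the spread between libraries. Named were the inducible and constitutive catalytic genes and the 11S genes, the 2 members of each role with the lowest p, members called, not overlapping or removed by the filter, and, of the up to 3 genes of each related list with the lowest p, those that bear on a proteasome result. Psme3, Psmg4, Pomp, Nfe2l1, Tap1, Canx, Pdia3, Calr, Ptprc, Cd3e, Cd68, Adgre1, Itgam, Lyz2, Cd74, Ckm and Acta1 were named outside that rule. So were the genes listed for a shared low library or a count of 0. The members and lists were chosen with earlier results of these data known. Promoter sequences are from RefSeq (GRCm38.p6). Protein identity between paired subunits was not analysed here, and some genes are not reported here.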

Additional observations from a re-analysis of the deposited data

Results flagged for a closer look

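In 6 of 52 sets of 4 AAV8-Null values, 1 library lay far from the other 3, by a rule that about 1 set in 20 would meet by chance. The sets are genes measured in the same 4 libraries and are not independent, so the count does not show an excess over chance. AAV8-Null replicate 3 was low for Psmb5 (55.4 CPM, others 65.5 to 67.5), Psmb2 (41.7 CPM, others 46.2 to 47.0) and Psmb4 (48.8 CPM, others 59.7 to 61.4), which are all beta subunits of the 20S core. AAV8-Null replicate 2 was high for Psma5 (24.8 CPM, others 20.6 to 21.1) and Psmc6 (72.8 CPM, others 66.9 to 67.5). AAV8-Null replicate 1 was high for the MHC class I gene H2-D1 (79.6 CPM, others 65.7 to 66.5). Groups of 3 are too small for this check, so AAV8-IGFBP1 replicate 2 was not examined by it.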

How the results depend on the processing

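No proteasome gene was called under any alternative run. Over all genes, the number called higher (58) and lower (29) was 213 and 234 with DESeq2, 88 and 69 with no count filter, 3 and 1 with the replicate number as a block, and 54 and 29 with the older edgeR form, which was added after seeing the data; limma-voom called 44 higher and 18 lower. Leaving out 1 library gave 11 to 43 higher, and 3 to 36 lower. Same-numbered libraries did not deviate together (correlations -0.098, 0.068 and -0.057), so the numbers do not pair them. The median of the constitutive genes ran from -0.04 to 0.03 and that of the inducible genes from -0.01 to 0.15 without 1 library. The sign turned for Psmb5 (0.01) and Psmb4 (0.001) under the block. Without 1 library Psmb5 ran from -0.07 to 0.06, Psmb4 from -0.10 to 0.03, Psmb10 from -0.01 to 0.15 and Psme2 from -0.11 to 0.12. DESeq2 called 1 partner gene and 1 slow fibre gene. The adipocyte median ran from -0.09 to 1.45 without 1 library. Under the block Ifngr2 had an edgeR adjusted p of 0.0757, the highest over its alternatives, where DESeq2 gave the lowest (1.19e-18). The cause of each change was not tested. With 3 and 4 libraries the interval of Psmb8 (-0.06 to 1.57) spans both no difference and a large one. The largest standard errors among the members were those of Psmb9 (0.43) and Psmb8 (0.35), followed by Psmg4 (0.21). Psmb9 and Psmg4 had under 100 counts in most or all libraries, and Psmb8 did not.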
